A study of Mus musculus with 14 samples.

Results

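The comparison described here set melanomas on day 27 of BRAF inhibitor treatment against melanomas on day 18 of the same treatment, across every gene that passed a filter on low values. It used 6 of the series' 14 tumours, 4 from day 27 and 2 from day 18, chosen by the treatment and day in their labels. All 14 tumours were subcutaneous grafts of SMM102, a mouse melanoma line whose genotype the labels do not give. The hosts were female C57BL/6J mice of 6 to 8 weeks, each injected at 2 sites. Both groups received PLX4032 (vemurafenib), an inhibitor of the mutant BRAF kinase, by intraperitoneal injection at 50 mg/kg on 5 days of the week, begun when tumours measured 150 to 300 mm3. Vehicle-treated tumours, 2 from day 3 and 2 from day 6, are called controls below and served only as a level of reference, and the 2 PLX4032 tumours of day 3 and 2 of day 6 are given where the level before day 18 helps to place a value.

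The day 27 labels name the left and right tumours of 2 mice, and the day 18 labels name no mouse. The columns of values carry a group and a running number but no mouse, so the 4 day 27 tumours were tested as 4 samples, and the p-values, which measure the spread between tumours, are too small for a statement about mice. No vehicle-treated tumour was taken on day 18 or day 27, so the time under treatment cannot be told apart from the age and growth of the tumour or from the handling of each collection.

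In melanoma cells with mutant BRAF, the kinase keeps the MAPK pathway active through MEK and ERK, and ERK in turn switches on growth genes and feedback inhibitors such as Ccnd1, Etv4 and Dusp6. Inhibitors of mutant BRAF shrink such tumours, and many of them grow again while treatment goes on. A tumour under the skin also holds fibroblasts, vessels, nerves and immune cells and borders on fat and muscle, and a bulk library mixes the RNA of all of them. In such samples fewer cells of a type and less RNA per cell cannot be told apart.

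RNA abundance per gene was read from the authors' table as a signal on a transcripts-per-million scale. Per-tumour totals ran from 879385 to 1082576 over the 6 tumours, and the depth of sequencing is unknown. Log2 values correlated at 0.981 to 0.99 among the day 27 tumours, at 0.978 between the day 18 tumours and at 0.94 to 0.95 across the days (Pearson's r across genes, which are not independent replicates). As a check of the labelled tissue, 20 melanocyte markers were sought, of which 12 were listed and 11 tested. Pax3, a transcription factor of the melanocyte lineage, was at 15.1 and 15.4 on day 18 and at 18.1 to 22.2 on day 27. The pigment gene Pmel was under 1 in all 6 tumours, and Tyr, Tyrp1, Dct and Mlana were not analysed here. Over the 11 markers the median log2 difference between the days was -0.09, with 4 positive and 7 negative. In the comparison below, 1 of them, Mlph, was called lower on day 27 (-1.19). Ddx3y, a gene of the Y chromosome, was listed at 13 and 21.2 on day 18 and at 12.2 to 25.1 on day 27 in these tumours of female mice.

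Day 27 tumours differed from day 18 tumours mainly by genes that were lower. With limma on log2(signal + 1) and Benjamini-Hochberg adjustment, 1592 of 15841 genes passed an adjusted p of 0.05 (10%). Of these, 505 were higher on day 27 (3.19% of all genes tested) and 1087 were lower (6.86%), so 68.3% of the calls were falls. That split depended on the scaling between tumours: falls made up 57.6% of the calls after median-of-ratios rescaling, 56.1% with each tumour rescaled to a common total and 40.9% after quantile normalisation. The median difference over all genes was -0.06 as deposited and -0.01, 0.06 and 0.08 under those scalings, in the same order.

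Falls were also the larger changes. The median called fall was -1.22 and the median called rise 0.67 on the log2 scale, and 253 genes fell by more than 2 log2 units against 10 that rose by as much. Falls of more than 4 log2 units were called for 48 genes and such rises for none. Groups that did not overlap and differed by 1 log2 unit or more were seen for 1071 genes lower on day 27 (6.76%) and 150 genes higher (0.947%). Without the size limit, the 4 and 2 tumours did not overlap for 3861 genes lower on day 27 (24.4%) and 2739 genes higher (17.3%).

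**Figure D1:**
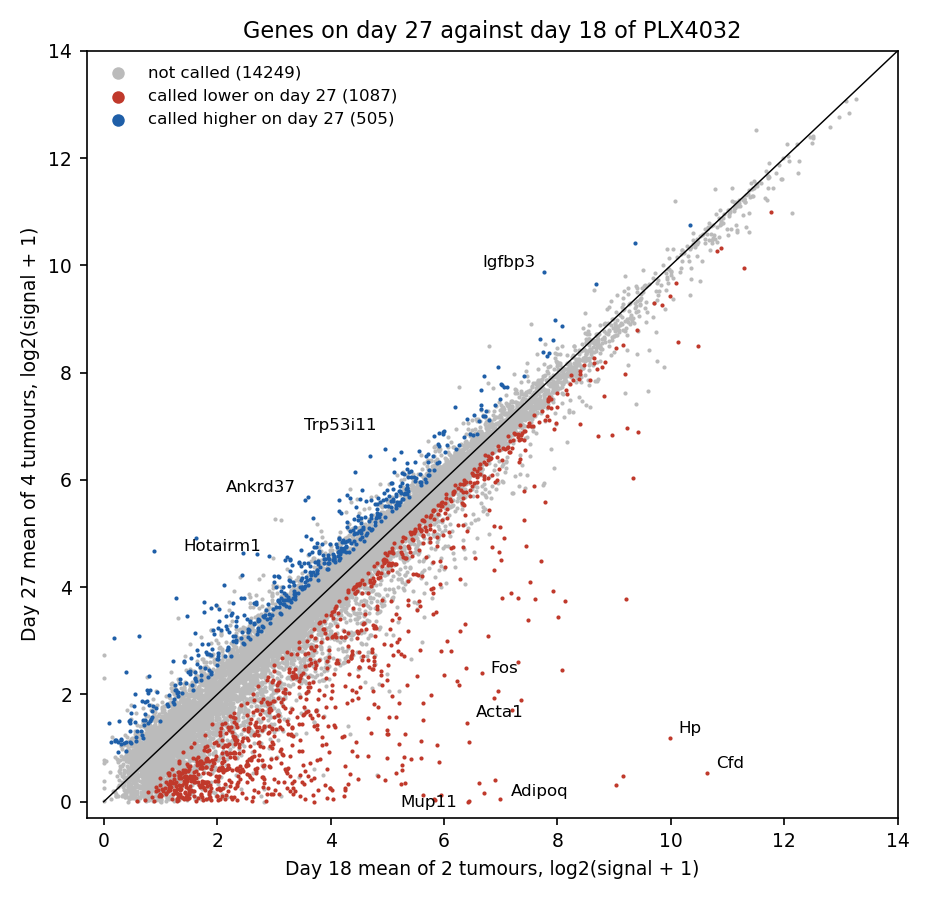
Mean log2(signal + 1) of the 4 day 27 tumours (vertical axis) against that of the 2 day 18 tumours (horizontal axis), 1 point per gene for 15841 genes, with the line of equal values. The 1087 genes called lower on day 27 reach far below the line, down to Cfd and Hp, while the 505 called higher stay close above it.

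Day 18 stood outside the control range for most of these genes. They were selected by the difference between the days, which favours extreme means, and the shares over all genes were not counted. The counts below therefore describe the called genes only and do not show which day was the unusual one. Among the 1087 falls, the day 18 mean lay above all 4 controls for 943 genes, and the day 27 mean lay within the control range for 634 genes and below it for 417. Among the 505 rises, the day 18 mean lay below all controls for 342 genes, and the day 27 mean lay above the control range for 306 genes and within it for 178. With each of the 6 tumours left out in turn, 280 of the 1087 falls (25.8%) and 32 of the 505 rises (6.34%) were called every time. Under all 21 alternative settings, which include those 6, 196 falls (18.0%) and 29 rises (5.74%) were called every time, with median differences of -2.75 and 1.01. Without day 18 tumour 1 the counts became 55 rises and 513 falls, and without day 18 tumour 2 they became 129 rises and 423 falls.

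Fat cell genes gave the largest falls. Cfd, which encodes the complement factor adipsin made by fat cells (chromosome 10, 79890853 to 79892655, plus strand of mm10), was at 1737 and 1475 in the 2 day 18 tumours and at 0.261, 0.139, 0.269 and 1.38 in day 27 tumours 1 to 4. Every day 27 tumour was thus near 0 and both day 18 tumours were the highest of the series, above the controls (1.18 to 27.8). The log2 difference was -10.12 (SE 0.80, adjusted p = 2.9e-05, limma). Adipoq, the fat cell hormone adiponectin, was at 111 and 142 on day 18 and was listed at 0 to 0.0827 on day 27, a difference of -6.93 (SE 0.52, adjusted p = 2.2e-05). Plin1, which coats the lipid droplet, was at 43.2 and 71.2 and then at 0.0725 or less, a difference of -5.76 (SE 0.30, adjusted p = 2.8e-06).

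Of 20 fat cell markers tested, 19 were called lower on day 27 and none higher, with a median difference of -5.07 against -0.06 over all genes. The exception was Mest, an imprinted gene also expressed outside fat, at 10.5 and 11.8 on day 18 and 12.5 to 21.8 on day 27 (adjusted p = 0.23). Between 18 and 19 markers were called under each alternative, including those that leave out a tumour. Pparg, the master transcription factor of fat cells, went from 14.5 and 12.3 to between 0.635 and 1.96, and Lipe, the hormone-sensitive lipase, from 78.6 and 84.2 to between 7.64 and 10.5. Expressed as the mean log2 level of the 20 markers relative to the controls, day 18 stood at 4.01 and 4.42 and day 27 at -0.68 to -0.51, beside a control range of -0.58 to 0.53. The earlier PLX4032 tumours were at 1.39 and 1.06 on day 3 and at 0.40 and 0.44 on day 6, so the 2 day 18 tumours were the highest of all 14. Where the fat cell RNA came from was not tested.

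**Figure D2:**
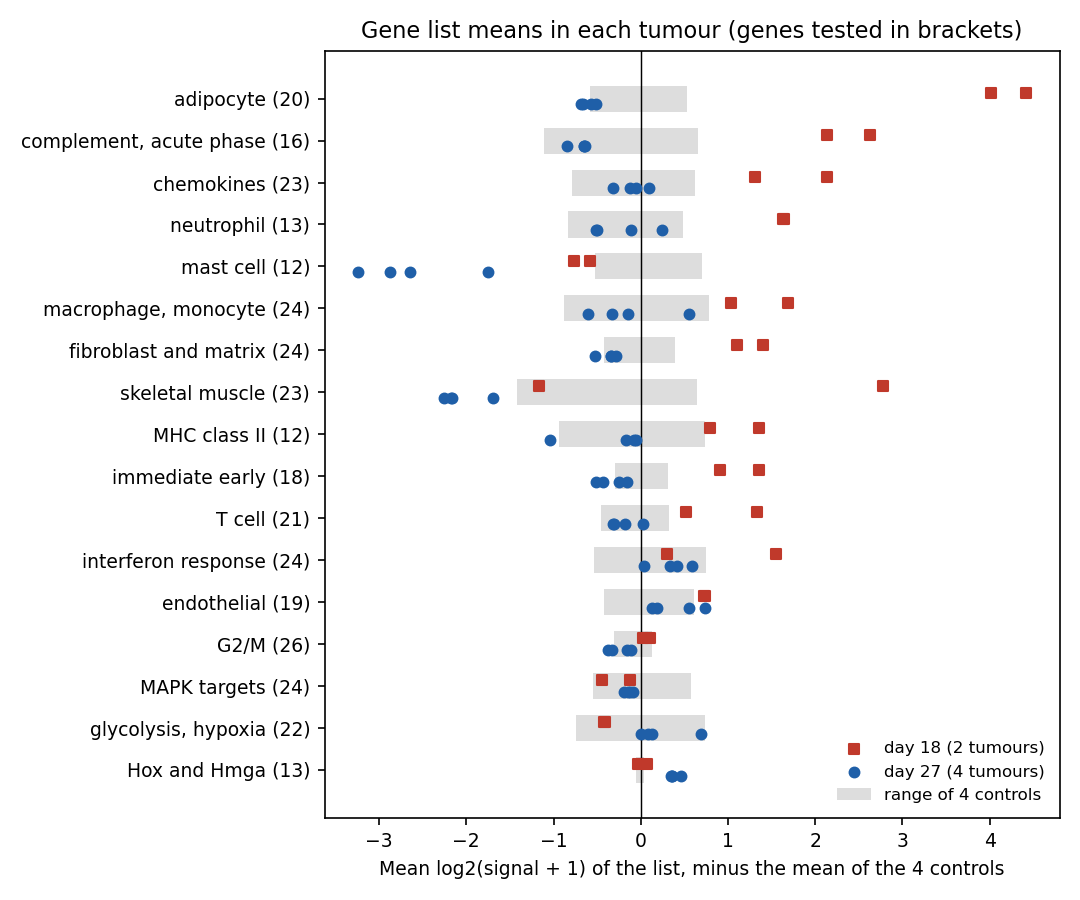
Mean log2(signal + 1) of each gene list in each tumour, minus the mean of the 4 controls (horizontal axis, log2 units), with day 18 as squares, day 27 as circles and the range of the controls as a grey bar. Day 18 tumours sit at 4.01 and 4.42 for fat cell genes and day 27 tumours at or just below the control range, mast cell genes on day 27 lie below the controls, and the 2 day 18 tumours lie far apart for skeletal muscle.

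The other genes of the 12 largest falls were Hp, Car3, Retn, Apoc1, Cidec, Mup11, Wfdc21, Plin4 and Mup18. Hp, the haemoglobin-binding acute phase protein haptoglobin, was at 1044 and 987 on day 18 and at 0.977 to 2.05 on day 27 (log2 difference -8.80, SE 0.83, adjusted p = 0.0001). Car3, a carbonic anhydrase abundant in fat and muscle, was at 443 and 610 and then at 0.096 to 0.397. Retn, the hormone resistin, was at 69.0 and 155 and then at 0.227 or less. Mup11 and Mup18 belong to the major urinary proteins, a family of near-identical genes among which reads can be divided wrongly; Mup11 was at 69.0 and 104 on day 18 and listed at 0 in all 4 day 27 tumours. The 12 genes were called lower under each of the 21 alternatives.

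**Figure D3:**
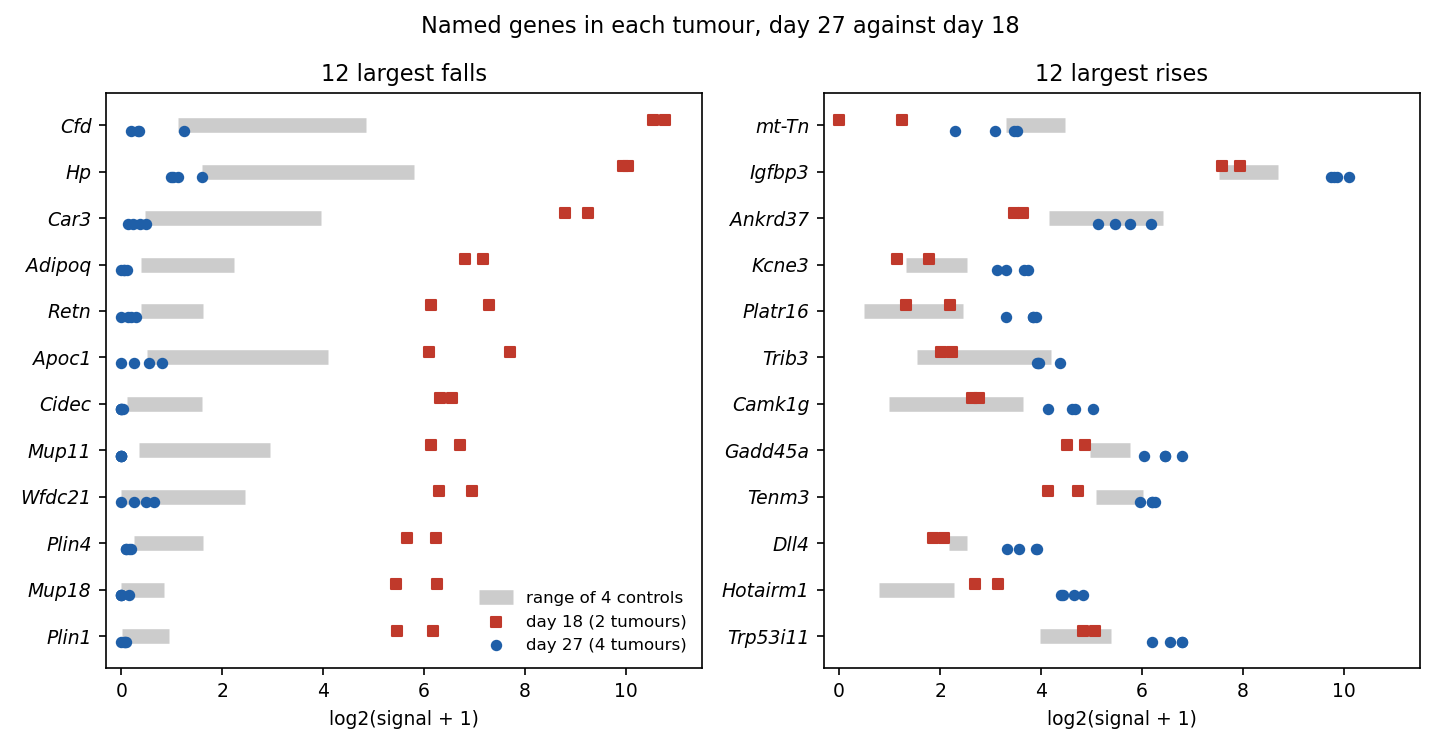
The 12 genes with the largest called falls (left) and rises (right), as log2(signal + 1) in each tumour, with day 18 as squares, day 27 as circles and a grey bar from the lowest to the highest control. The difference for Cfd is -10.12 log2 units, whereas the largest rise is 2.47, for mt-Tn, and Igfbp3 on day 27 lies above its control range.

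Part of the lipid metabolism genes fell as well, while cholesterol synthesis genes had mostly positive differences. Among 20 genes of fatty acid synthesis and oxidation, 8 were called lower and none higher, with a median of -0.40. Scd1, which puts a double bond into fatty acids, was at 548 and 756 on day 18 and at 54.5 to 73.5 on day 27 (log2 difference -3.31, SE 0.39, adjusted p = 0.00053), and Mlxipl, the carbohydrate-responsive activator of lipid synthesis, went from 10.1 and 10.7 to between 0.208 and 0.369. Without day 18 tumour 2, 3 of the 20 were called. Among 24 genes of cholesterol synthesis the median was 0.47, none was called higher, and the single call was Ebp, a sterol isomerase, at 40 and 35.1 and then 22.4 to 26.5 (-0.64, adjusted p = 0.0054), lost without day 18 tumour 1. Sqle, the squalene epoxidase, illustrates the positive median: it was at 34.0 and 43.4 on day 18 and at 50.6 to 72.7 on day 27 (adjusted p = 0.40).

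Skeletal muscle genes split the 2 day 18 tumours. Acta1, skeletal muscle actin, was at 10 in day 18 tumour 1 and 659 in day 18 tumour 2, and at 0.949, 1.09, 0.754 and 7.29 in day 27 tumours 1 to 4. The groups did not overlap, but the day 18 tumours differed more from each other than tumour 1 did from day 27 tumour 4; controls ran from 10.4 to 111. The log2 difference was -4.94 (SE 1.3, adjusted p = 0.044). Ckm, muscle creatine kinase, showed the same spread, at 4.52 and 258 on day 18 and 0.573 or less on day 27. Of 23 muscle genes, 6 were called lower (median -2.76), and this count rested on single tumours: all 23 were called without day 18 tumour 1, none without day 18 tumour 2, and 1, 1, 2 and 3 without day 27 tumours 1 to 4. Relative to the controls, the mean level of the list was -1.17 and 2.78 on day 18 and -2.26 to -1.69 on day 27. Where the muscle RNA came from was not tested.

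Acute phase and complement genes fell together. C3, the central complement protein, was at 355 and 203 on day 18 and at 3.01, 5.45, 5.84 and 4.05 on day 27, and both day 18 values exceeded every control (3.02 to 39.7). Its log2 difference was -5.62 (SE 0.61, adjusted p = 0.00028). Of 16 complement and acute phase genes, 14 were called lower and none higher, with a median of -2.16; 5 stayed called without day 18 tumour 1 and 9 without day 18 tumour 2. Serping1, the C1 inhibitor, went from 335 and 173 to between 6.28 and 20.1. The fat cell marker mean moved from 4.01 and 4.42 to between -0.68 and -0.51 in the same tumours; its part in the complement falls was not tested.

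Fibroblast genes fell in part. Sfrp2, a secreted Wnt modulator of fibroblasts, was at 49.3 and 45.8 on day 18 and at 0.786 to 1.58 on day 27 (log2 difference -4.47, SE 0.41, adjusted p = 9.6e-05). Pi16, Fbln1, Fbln2, Dpt and Lum, which mark connective tissue fibroblasts or their matrix, fell by 4.10, 3.74, 3.69, 3.23 and 3.30 on the log2 scale. Fibrillar collagen changed less: Col1a1 was at 1198 and 1050 and then at 302 to 467, a difference of -1.56 (SE 0.24, adjusted p = 0.0028), within the control range of 361 to 605 for 3 of the 4 tumours. Of 24 fibroblast and matrix genes, 13 were called lower and none higher (median -1.49), 8 without day 18 tumour 1 and 10 without day 18 tumour 2. Other fibroblast genes were not called: Pdgfra, the PDGF receptor alpha, was at 97.3 and 92.7 on day 18 and 119 to 153 on day 27 (adjusted p = 0.22), and Fap, fibroblast activation protein, at 15.8 and 15.3 and then 13 to 24 (adjusted p = 0.88).

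Mast cell proteases were lower on day 27 than in any other group. Mcpt4, a mast cell chymase (chromosome 14, 56059629 to 56062313, minus strand), was at 42.6 and 55.8 on day 18 and at 0.895, 1.72, 2.70 and 7.49 in day 27 tumours 1 to 4, with controls at 43.9 to 115. Its log2 difference was -3.80 (SE 0.54, adjusted p = 0.0016). Cma1, another chymase, was at 32.3 and 36.6 and then at 0.540 to 7.80, and Cpa3, the mast cell carboxypeptidase, at 22.4 and 28.2 and then at 0.303 to 5.43. Day 27 tumour 4 held the highest value of all 3 proteases among the day 27 tumours. Of 12 mast cell genes 7 were called lower (median -2.14), and 4 stayed called without day 27 tumour 2. Without either day 18 tumour 1 stayed called, namely Mcpt4. Unlike the fat cell and complement genes, these genes were at or just below the control level on day 18: the list mean relative to the controls was -0.76 and -0.58 on day 18 and -3.24 to -1.75 on day 27. Kit, the growth factor receptor of mast cells, which other cells carry as well, was at 4.66 and 7.31 on day 18 and 3.86 to 7.25 on day 27 (adjusted p = 0.92).

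**Figure D4:**
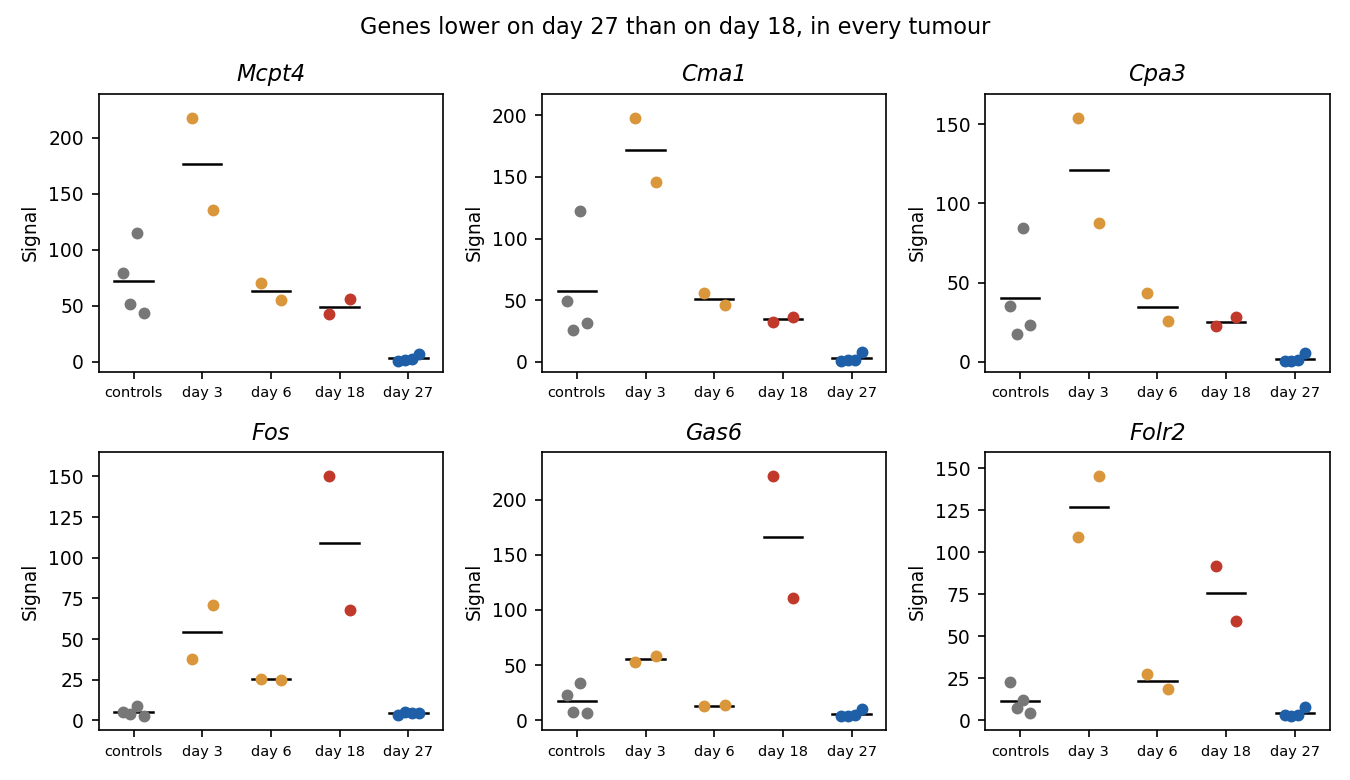
Signal of 6 genes in every tumour by group (vertical axis, transcripts-per-million scale; controls, then PLX4032 days 3, 6, 18 and 27), 1 point per tumour with the group mean as a line. The proteases Mcpt4, Cma1 and Cpa3 are lowest on day 27 and near the controls on day 18, while Fos, Gas6 and Folr2 are above the controls on day 18 and within or below them on day 27.

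Genes of neutrophils and of some macrophages fell. S100a9, a calcium-binding protein abundant in neutrophils, was at 50 and 31.2 on day 18 and at 1.5 to 7.82 on day 27 (log2 difference -3.16, SE 0.66, adjusted p = 0.016), a call lost without either day 18 tumour. Of 13 neutrophil genes 9 were called lower (median -1.57), but 2 were called without either day 18 tumour, and 5 without day 27 tumour 1. Folr2, a folate receptor of resident macrophages, was at 91.9 and 59.3 on day 18 and at 3.01, 2.44, 3.00 and 8.22 on day 27 (log2 difference -3.98, SE 0.51, adjusted p = 0.00088). Cd163 and Ly6c2, which mark resident macrophages and inflammatory monocytes, fell by 3.12 and 3.30 on the log2 scale, the former call lost without day 18 tumour 1 and the latter without either day 18 tumour or day 27 tumour 1. The more general macrophage gene C1qa was at 887 and 511 on day 18 and 247 to 439 on day 27 and was not called (adjusted p = 0.20). Of 24 macrophage and monocyte genes 5 were called lower (20.8%, beside 6.86% of all genes) and all 24 differences were negative; 1 was called without day 18 tumour 1, 2 without day 18 tumour 2 or day 27 tumour 1, 3 without day 27 tumour 2 or 3, and 8 without day 27 tumour 4.

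Chemokine genes fell in part. Cxcl14, a chemokine of epithelia and connective tissue, was at 136 and 112 on day 18 and at 1.86 to 6.81 on day 27 (log2 difference -4.89, SE 0.60, adjusted p = 0.00066). Ccl7 and Ccl6, which attract monocytes, fell by 2.67 and 3.83 on the log2 scale. Of 23 chemokines, 10 were called lower and none higher (median -1.60), 5 without either day 18 tumour and 6 without day 27 tumour 1. The interferon-induced ligands differed less: Cxcl9 was at 85.6 and 15.3 on day 18 and 15.9 to 24.3 on day 27, with overlapping groups (adjusted p = 0.39).

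Lymphocyte, antigen presentation and interferon genes had negative medians but few calls. Without overlap, 19 of 21 T cell genes and 12 of 12 class II genes were lower on day 27 (24.4% of all genes were). The same held for 10 of 19 cytotoxic and natural killer cell genes, 1 of 17 class I genes and 2 of 24 interferon response genes. Of 21 T cell genes, 3 were called lower (median -1.16, 14.3%), none without either day 18 tumour or day 27 tumour 1 and 1 without day 27 tumour 2 or 3. Cd8a, the coreceptor of killer T cells, was at 11.8 and 2.75 on day 18 and at 3.36, 3.16, 3.48 and 1.1 on day 27, so the groups overlapped (adjusted p = 0.33). None of 19 cytotoxic and natural killer cell genes was called (median -0.83), nor any of 17 class I presentation genes or 24 interferon response genes (median -0.58 for each). Cd74, the invariant chain of class II, was at 1974 and 1040 and then at 182 to 570 (-1.99, adjusted p = 0.049), the 1 call among 12 class II genes (median -1.45), and it was called under 5 of the 21 alternatives. Day 18 tumour 1 carried the higher immune level of the pair: its interferon response mean relative to controls was 1.55 against 0.30 in tumour 2, with day 27 at 0.04 to 0.59. Cd274, the checkpoint ligand PD-L1, was at 13.3 and 6.09 on day 18 and at 4.18 to 6.25 on day 27 (adjusted p = 0.36), and Ptprc, the pan-leukocyte gene CD45, at 53.6 and 29.6 and then at 14.1 to 34.1 (adjusted p = 0.24).

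Endothelial genes had a median difference near 0, with a few large exceptions. Pecam1, the endothelial adhesion molecule CD31, was at 34.5 and 32.7 on day 18 and at 24.8 to 43.5 on day 27, with overlapping groups and a difference of -0.03 (SE 0.33, adjusted p = 0.96). The median over 19 endothelial genes was 0.03, with 4 called lower (21.1%, beside 6.86% of all genes). Among these, Lyve1, a lymphatic endothelial and macrophage receptor for hyaluronan, was at 19.6 and 19.0 and then at 0.232 to 0.725 (log2 difference -3.84, SE 0.48, adjusted p = 0.00071), and Aplnr, the apelin receptor, at 12.8 and 12.4 and then at 0.976 to 2.20 (-2.41, adjusted p = 0.0034). Tek and Eng, the others, fell by 1.11 and 0.50, and both calls were lost without any 1 tumour other than day 27 tumour 3. In the opposite direction, Dll4, the Notch ligand of sprouting vessels, was at 2.65 and 3.23 on day 18 and at 13.9, 9.02, 14.1 and 10.8 on day 27, above every control (3.54 to 4.78; log2 difference 1.70, SE 0.21, adjusted p = 0.00068). Kcnj8, a potassium channel of pericytes, rose from 3.22 and 3.65 to between 7.30 and 12.1 (1.31, adjusted p = 0.012), a call lost without either day 18 tumour, while Pdgfrb, the pericyte PDGF receptor, was at 52.9 and 50.6 and then 53.2 to 61.4 (adjusted p = 0.60).

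Of 18 immediate early genes, which cells switch on within minutes of a stimulus, 8 were called lower on day 27 and none higher (median -1.16); 3 were called without day 18 tumour 1. Fos, a subunit of the AP-1 transcription factor (chromosome 12, 85473890 to 85477273, plus strand), was at 150 and 68.2 on day 18 and at 3.14, 5.07, 4.44 and 4.77 on day 27, beside controls at 2.97 to 8.91. The difference was -4.27 (SE 0.40, adjusted p = 9.6e-05). Klf2 and Zfp36, a transcription factor and an mRNA decay factor of the same early wave, fell by 2.01 and 1.91 on the log2 scale, and these 3 calls held under each of the 21 alternatives. Egr1 was at 99.9 and 78.3 on day 18 and at 16.1 to 56.4 on day 27 and was not called (adjusted p = 0.17). The AP-1 partner gene Jun was not called (log2 difference 0.18).

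The Fos promoter is shown because Fos gave the largest fall of the list, and CREB, a factor activated by many such stimuli, is known to bind there. The RefSeq sequence on GRCm38.p6 (chr12:85473640-85473939, plus strand, from 250 bases before to 50 bases after the start of the gene) has the shorter CREB letters TGACG, searched on both strands, in capitals, at positions -129 and -66 from the start.
Fos promoter: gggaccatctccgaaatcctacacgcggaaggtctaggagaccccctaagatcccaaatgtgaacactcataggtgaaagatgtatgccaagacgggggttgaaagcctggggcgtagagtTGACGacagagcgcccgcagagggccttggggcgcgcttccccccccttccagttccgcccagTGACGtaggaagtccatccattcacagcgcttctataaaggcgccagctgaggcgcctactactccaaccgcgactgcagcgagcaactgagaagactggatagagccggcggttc
Those letters were in 10 of the 15 immediate early promoters found in RefSeq (66.7%), among them Klf2, Nr4a1, Btg2 and Dusp1, and in 30.8% of 10924 promoters of tested genes. The full cAMP response element TGACGTCA, which contains them, was in 2 of the 15 promoters (13.3%), those of Btg2 and Dusp1 and not that of Fos, and in 3.11% of all. A match describes the letters and is not evidence of binding. Letters were also searched in the promoters of other lists, some were added to a first set, and not all are shown. Those of the PPAR-RXR site were in 0 of 14 fat cell promoters and 0.0549% of all. The letters TTTGAA were in 17 of 23 G2/M promoters (73.9%) and 12.3% of all.

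Of 24 receptor tyrosine kinases and ligands, 3 were called lower (12.5%, beside 6.86% of all genes), namely Gas6, Igf1 and Igf2. Igf1r was the 1 called higher (4.17%, beside 3.19%), and the median difference was 0.01. Gas6, the ligand of the AXL receptor family, was at 221 and 111 on day 18 and at 3.59, 3.82, 4.67 and 10.1 on day 27, with controls at 6.82 to 33.8 (log2 difference -4.69, SE 0.59, adjusted p = 0.00081). Its receptor gene Axl was at 415 and 388 and then at 324 to 344, without overlap but not called (-0.28, adjusted p = 0.086). Igf1, the insulin-like growth factor, was at 34.1 and 28.8 and then at 3.18 to 6.25 (-2.47, adjusted p = 0.0029), and Igf1r, its receptor, at 14.8 and 16.3 and then at 20.8 to 22.4 (0.45, adjusted p = 0.027), a call lost without any 1 tumour other than day 27 tumour 3. Met was at 31.3 and 40.2 on day 18 and 40.6 to 47.7 on day 27 (adjusted p = 0.18), and Egfr at 13.2 and 11 and then 9.5 to 13.2 (adjusted p = 0.85).

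MAPK target genes had mostly positive differences and 1 call. Dusp6, the ERK phosphatase, was at 142 and 161 on day 18 and at 140 to 224 on day 27, with overlapping groups (0.20, SE 0.16, adjusted p = 0.44). Ccnd1, cyclin D1, was at 329 and 423 and then at 431 to 567 (0.35, adjusted p = 0.23), and Etv4, an ETS factor induced by ERK, at 59.0 and 79.5 and then at 97.9 to 109 (0.58, adjusted p = 0.14). Etv5 was called, at 25.2 and 35.6 on day 18 and 39.0 to 51.7 on day 27 (0.55, SE 0.15, adjusted p = 0.04), a call lost without day 18 tumour 1 or day 27 tumour 1, 3 or 4. Of 24 MAPK targets 17 differences were positive, the median was 0.25, and 1 was called higher (4.17%, beside 3.19% of all genes) and none lower. Without overlap, 11 were higher on day 27 and 4 lower (17.3% and 24.4% of all genes were).

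Cell cycle genes had small negative differences, some of them called. Mki67, the proliferation marker, was at 50.0 and 54.5 on day 18 and at 46.2 to 55.2 on day 27, with overlapping groups (-0.05, SE 0.12, adjusted p = 0.83). Plk1, a kinase of mitosis, was at 83.2 and 91.3 and then at 42.1 to 58.3 (-0.77, SE 0.15, adjusted p = 0.011), a call lost without either day 18 tumour. As deposited, all 26 G2/M genes and all 26 G1/S genes had negative differences, with medians of -0.31 and -0.30; 5 and 3 of them were called lower. With each tumour rescaled to a common total the medians were -0.19 and -0.17. Without either day 18 tumour no G2/M gene was called, and without day 27 tumour 2 there was 1 such call. The G1/S count was 1, 0 and 1 without those tumours and 10 without day 27 tumour 3. Among inhibitors of the cycle, Cdkn1b (p27) rose from 28.7 and 32.5 to between 42.7 and 53.2 (0.66, adjusted p = 0.0059), a call lost without day 18 tumour 1.

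The rises were led by a small set of genes. Igfbp3, which binds insulin-like growth factors outside the cell (chromosome 11, 7206086 to 7213923, minus strand), was at 192 and 246 on day 18 and at 924, 850, 1101 and 888 on day 27. All 4 day 27 values exceeded every other tumour of the series, whose controls ran from 183 to 411, and the log2 difference was 2.10 (SE 0.24, adjusted p = 0.00042). Gadd45a, a growth arrest gene induced by stress, was at 21.8 and 28.4 and then at 65.0 to 109 (1.74, SE 0.23, adjusted p = 0.0010), and Trp53i11, a gene named for its induction by p53, at 27.4 and 32.7 and then at 72.5 to 109 (1.62, SE 0.23, adjusted p = 0.0019). Of 19 other p53 target genes 1 was called higher (5.26%, beside 3.19% of all genes) and 2 lower (10.5%, beside 6.86%), with a median of 0.16. Without day 18 tumour 1 none of these 3 was called, and the rise was lost without any 1 tumour other than day 27 tumour 1. The mitochondrial asparagine tRNA gene mt-Tn had the largest called rise, from 0 and 1.36 to between 3.92 and 10.5 (2.47, adjusted p = 0.0034). Its controls were at 8.87 to 21.1, so both day 18 values lay below every control and near the floor of the scale. The size of this rise ran from 1.17 to 4.30 over the alternatives.

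Of the 12 largest rises, mt-Tn, Igfbp3, Gadd45a, Dll4 and Trp53i11 were called under each alternative. The other 7, Ankrd37, Kcne3, Platr16, Trib3, Camk1g, Tenm3 and Hotairm1, were not called without day 18 tumour 1, with adjusted p of 0.056 to 0.24. All of these but Kcne3 and Tenm3 were also lost without day 18 tumour 2 (adjusted p of 0.080 to 0.17) and without day 27 tumour 1 (0.056 to 0.078) or tumour 2 (0.060 to 0.10), and 3 of them without day 27 tumour 4 (0.059 to 0.087). Their groups did not overlap in the full data: Trib3, a pseudokinase induced by the amino acid response, was at 3.03 and 3.71 on day 18 and 14.1 to 19.7 on day 27, and Camk1g, a calcium-dependent kinase, at 5.79 and 5.20 and then 16.7 to 31.7.

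**Figure D5:**
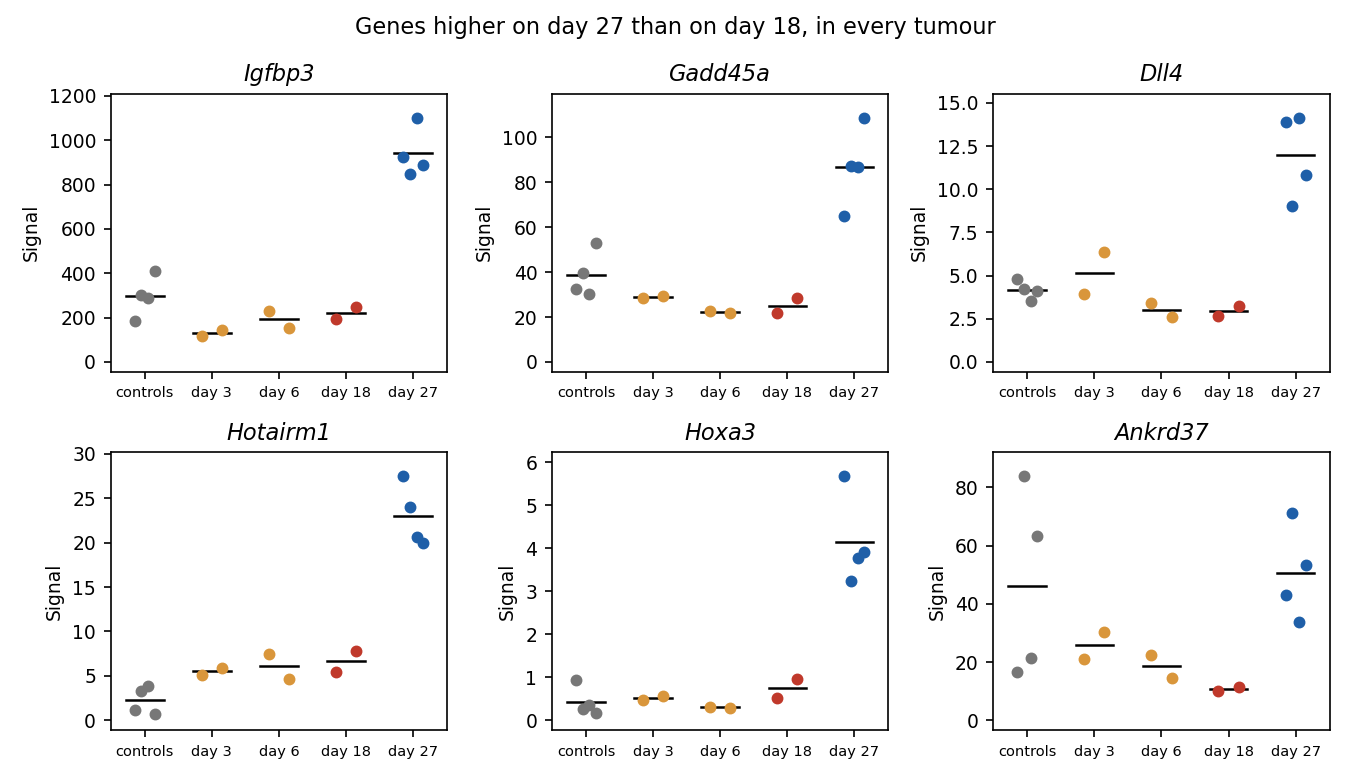
Signal of 6 genes in every tumour by group (vertical axis, transcripts-per-million scale; controls, then PLX4032 days 3, 6, 18 and 27), 1 point per tumour with the group mean as a line. Igfbp3, Gadd45a, Dll4, Hotairm1 and Hoxa3 on day 27 lie above every other tumour, whereas the day 27 values of Ankrd37 (33.9 to 71.3) lie within the control range.

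Genes at the start of the HoxA cluster rose. Hotairm1, a noncoding RNA of the cluster (chromosome 6, 52156902 to 52162119, plus strand), was at 5.48 and 7.85 on day 18 and at 27.4, 24, 20.6 and 19.9 on day 27, and controls were at 0.723 to 3.82. Its log2 difference was 1.65 (SE 0.39, adjusted p = 0.025). Hoxa3, a patterning transcription factor, was at 0.531 and 0.958 and then at 5.68, 3.24, 3.78 and 3.92, a difference of 1.55. It was under 1 in every tumour outside day 27, so it passed the filter on low values only through the day 27 tumours. Its call therefore adds no support to these values. With the filter at 5 it was not called. Hoxa2 and Hoxa5 rose by 0.68 and 0.70 from values under 1 on day 18 to between 0.458 and 2.57 on day 27; both calls were lost without any 1 tumour other than day 27 tumour 3. Hoxa7, further along the cluster, was at 1.64 and 1.76 on day 18 and 0.769 to 1.28 on day 27 (adjusted p = 0.19). The strand setting of the counting is unknown, so reads of Hotairm1 cannot be told apart from any on the opposite strand. Hmga1 and Hmga2, chromatin proteins of growing cells, were at 1649 and 2092 and at 193 and 242 on day 18, and at 1796 to 2848 and 274 to 305 on day 27, neither of them called (adjusted p = 0.62 and 0.17).

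Hypoxia genes had mostly positive differences with wide spread. Ankrd37, a target of hypoxia-inducible factors, was at 10 and 11.4 on day 18 and at 43.0, 71.3, 33.9 and 53.5 on day 27 (2.09, SE 0.57, adjusted p = 0.045), above day 18 in every tumour. Car9, the carbonic anhydrase used as a hypoxia marker, was at 3.62 and 3.1 and then at 34.4, 72.3, 14.4 and 15.2, without overlap, and was not called (2.70, SE 0.89, adjusted p = 0.078). Vegfa, the vessel growth factor, was at 66.9 and 87.2 and then at 142 to 329 (1.46, adjusted p = 0.11). Day 27 tumour 2 was the highest in all 3 genes. Of 22 hypoxia and glycolysis genes 19 differences were positive (median 0.49), 14 were higher without overlap (17.3% of all genes were), and 1 was called higher and none lower; Ldha, the lactate dehydrogenase of glycolysis, was at 1138 and 1057 and then at 1048 to 1340 (adjusted p = 0.9). Relative to the control mean, the list stood at -0.41 and -0.42 on day 18 and at 0.00 to 0.69 on day 27, both within the spread of the controls (-0.74 to 0.74).

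The Ankrd37 promoter is shown because it carries the core letters of the hypoxia response element. In the RefSeq sequence on GRCm38.p6 (chr8:45999801-46000100, minus strand, over the same window), ACGTG on either strand stands in capitals at positions -241 and -6.
Ankrd37 promoter: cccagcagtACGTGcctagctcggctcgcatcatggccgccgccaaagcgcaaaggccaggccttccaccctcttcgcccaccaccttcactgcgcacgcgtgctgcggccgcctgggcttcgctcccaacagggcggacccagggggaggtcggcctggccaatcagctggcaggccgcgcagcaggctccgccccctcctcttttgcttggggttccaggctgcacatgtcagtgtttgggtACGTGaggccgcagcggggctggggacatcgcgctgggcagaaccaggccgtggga
Those letters were in 13 of the 20 promoters of the list found in RefSeq (65.0%), Car9, Egln3, Bnip3 and Ldha among them, and in 24.8% of the 10924 promoters. The CACGTG box contains them. The promoter was picked for its match, and here too a match is not evidence of binding.

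Nerve genes and YAP and TAZ targets had calls in both directions. Of 12 Schwann cell and nerve genes 5 were called lower (41.7%, beside 6.86% of all genes), among them Mbp and Pmp22 of the myelin sheath (-1.87 and -1.36). Another 2 were called higher (16.7%, beside 3.19%), among them the cadherin gene Cdh19 (1.19). Neither rise was called without either day 18 tumour or without day 27 tumour 2. Among 19 YAP and TAZ targets, 3 were called lower (15.8%, beside 6.86% of all genes) and 4 higher (21.1%, beside 3.19%). Cyr61, a matrix protein of the early response, was at 184 and 154 on day 18 and 43.4 to 72.5 on day 27 (-1.61, adjusted p = 0.0011). In contrast, Tead1, the DNA-binding partner of YAP, went from 31.9 and 34.6 to between 52.8 and 61.0 (0.73, adjusted p = 0.019). No rise of that list was called without either day 18 tumour, and 2 were without day 27 tumour 2. Cyr61 was the 1 fall called without either day 18 tumour, day 27 tumour 2 or day 27 tumour 4. Xbp1, a transcription factor of secretory cells, fell from 129 and 119 to between 64.3 and 83.0 (-0.77, adjusted p = 0.0063), 1 of 4 falls among 20 genes of the amino acid and ER stress responses; without day 18 tumour 1 none of the 4 was called, and without each other tumour 1 to 3. Adamts4, a protease that cuts aggrecan, rose from 10.9 and 11.7 to between 23.2 and 24.1 (1.01, SE 0.13, adjusted p = 0.00093), called under each alternative, and of the other proteases and inhibitors tested 4 were called lower, none without day 18 tumour 1 and 1 to 3 without each other tumour.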

How the data were processed

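Per the labels' protocols, RNA came from flash frozen tumours by Trizol extraction and libraries were made with a TruSeq RNA kit. A single deposited table holds a column for each tumour, with values that the authors named TPM; kallisto, sleuth and the mm10 genome are named in the submitters' processing notes, with no versions. Since column totals reach 1084401, and those of 5 of the 14 columns exceed what TPM can sum to, the deposited values were treated as a signal rescaled by the authors in an unstated way, and tested as planned for TPM. The table lists 18481 genes, and 54 of its rows repeat another row. Its symbols matched GENCODE or RefSeq names for 17811 genes (96.4%), 3409 of them after restoring letter case; 670 did not match. Positions are from GENCODE (GRCm38, the assembly of mm10) and promoters from RefSeq (GRCm38.p6).

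Genes at 1 or more in at least 2 of 14 columns were kept, 15841 in all. Log2(signal + 1) was fitted with limma 3.58.1 in R 4.3.3 on 6 group means over all 14 columns, with a variance trend, and day 27 minus day 18 was called at a Benjamini-Hochberg adjusted p of 0.05. Each p given with a gene is this adjusted p, over all 15841 genes, and each difference is on the log2(signal + 1) scale, which understates the change of low genes. The steps were tested on simulated data in which all tumours were independent, so the simulation cannot show the effect of tumours that share a mouse. No counts or depths are given, so precision rests on the spread between tumours.

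The 12 largest called rises and falls were named among separated genes whose mean reached 5 on the day with the larger value, with up to 4 members of each list by smallest p and a fixed set of genes. Other named genes were chosen after their values were seen. The comparison and the lists were chosen with earlier results of these data known. The 21 alternatives varied the pseudocount, filter, scaling, variance model, samples fitted, averaging by mouse and each tumour left out. A few genes are not reported here.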

Additional observations from a re-analysis of the deposited data

Results flagged for a closer look

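In 15 of 268 results looked at (5.6%), 1 of the 4 day 27 tumours stood far from the other 3, where chance alone gives about 1 in 20. Of these, 10 concerned day 27 tumour 4. It was the highest of its group for Cfd (1.38), Cidec (0.0297), Mup18 (0.12), Acta1 (7.29), Myl1 (3.02), Folr2 (8.22), Ptprc (34.1) and Trib3 (19.7), and the lowest for Cd8a (1.1) and Platr16 (8.91). The means of whole lists relative to the controls did not all share this: in tumour 4 the macrophage list (0.55) and the skeletal muscle list (-1.69) were the highest of the 4, the fat cell list (-0.57) lay between the others and the T cell list (-0.32) was the lowest. Day 27 tumour 3 was the lowest for Lcn2 (0.136) and had the highest mean of the p53 target list relative to the controls (0.21). Day 27 tumour 1 had the lowest mean of the complement and acute phase list (-0.84) and of the class II list (-1.04), and the highest of the Hox and Hmga list (0.46). Cidec and Mup18 were flagged at the floor of the scale, with the lowest day 27 value at 0. For such values the rate of 1 in 20 does not hold.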

How the results depend on the processing

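Under quantile normalisation 1212 genes were called higher in place of 505, with 32 list genes called higher in place of 20 and 266 separated higher in place of 150; calls lower kept within 1.5 times. Limma array weights gave 1009 higher, 2200 lower and 3209 in all, and 36 and 250 list genes called higher and lower in place of 20 and 156. A fit on days 18 and 27 alone called 41 list genes higher, and one on the 10 treated tumours 40. A pseudocount of 0.1 gave 301 separated genes higher, and one of 5 gave 57 higher and 477 lower in place of 1071. The counts over all genes and lists stayed within 1.5 times under both other filters (5 or more in 2 columns, or none), median-of-ratios rescaling, rescaling to a common total, no variance trend and robust moderation. Averaging day 27 tumours by mouse, under each of the 3 possible pairings, left 124, 86 and 139 genes higher, 467, 386 and 455 lower and 591, 472 and 594 in all, with 4, 4 and 5 list genes higher and 86, 73 and 84 lower. Leaving out each tumour in turn gave 55 to 548 genes called higher, 423 to 1371 lower and 552 to 1919 in all, 2 to 16 list genes higher and 76 to 160 lower, and 148 to 235 genes separated higher; fewer samples enter these fits, and in those with 1 day 18 tumour its spread was taken from the other groups. For the other settings the cause was not tested. Among 226 genes followed through 4727 values, no direction reversed where the gene was called in the full data or under the alternative. Changes of sign in genes called in neither were not counted. Of those values, 584 fell short of the call made on the full data and 100 passed where the full data did not. No paired analysis was possible because the columns carry no mouse and the day 18 labels name none.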

Other observations

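Of 15 circadian clock genes tested, a list chosen after their values were seen, 1 was called higher and 3 lower. Without overlap, 8 were lower and 4 higher, beside 24.4% and 17.3% of all genes. A list chosen in this way cannot be judged against those shares. Arntl, the activator of the clock, was at 11.2 and 9.27 on day 18 and at 24.5, 24.8, 22.8 and 27.8 on day 27, above the controls (13 to 21; log2 difference 1.21, SE 0.17, adjusted p = 0.0017). That call held under all 21 alternatives. Per1, a repressor of the clock, was at 35.8 and 30.1 on day 18 and at 7.81, 8.61, 6.23 and 18.1 on day 27 (-1.70, adjusted p = 0.01), a call lost without either day 18 tumour. Per2, another repressor, was at 5.73 and 5.17 and then at 1.36 to 2.34 (-1.20, adjusted p = 0.036), called under 11 of the 21 alternatives and lost without any 1 tumour other than day 27 tumour 4. Nr1d1, a repressor of Arntl, was at 35.3 and 36.5 and then at 8.2 to 11.3 (-1.77, adjusted p = 0.023), a call lost without either day 18 tumour or day 27 tumour 4. Dbp, an output gene, was at 44.2 and 41.9 and then at 10.5 to 19.6, without overlap and not called (adjusted p = 0.079). The hour of day at which tumours were taken was not analysed here.

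The Per1 promoter is shown because it holds the CACGTG letters bound by the clock activators. In the RefSeq sequence on GRCm38.p6 (chr11:69098699-69098998, plus strand, from 250 bases before to 50 after the start) they stand in capitals at position -166.
Per1 promoter: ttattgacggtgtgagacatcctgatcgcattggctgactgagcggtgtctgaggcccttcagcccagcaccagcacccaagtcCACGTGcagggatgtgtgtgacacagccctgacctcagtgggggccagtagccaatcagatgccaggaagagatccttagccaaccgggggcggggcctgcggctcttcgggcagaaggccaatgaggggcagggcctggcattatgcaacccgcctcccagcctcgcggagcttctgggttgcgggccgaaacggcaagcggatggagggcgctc
They were in 5 of 13 clock promoters found in RefSeq (38.5%) and in 9.8% of 10924 promoters of tested genes. This promoter was also picked for its match, which is not evidence of binding.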
